A study of Mus musculus with 11 samples.

Results

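The insulin-like growth factor (IGF) family was followed in mouse microglia, the resident macrophages of the brain. The members were chosen by gene symbol through the RefSeq accession that each array probe carries, and comprised the ligand gene Igf1, the receptor genes Igf1r and Igf2r, and the binding protein genes Igfbp2 to Igfbp7. All 9 members passed the filter on dim probes, and they were represented by 14 probes among the 28032 that named the 19560 genes tested. The family was singled out after its response to cytokines had been seen, since Igfbp5 was among the genes with the largest difference between stimulated and unstimulated cultures. Differences between those 2 kinds of culture are therefore given for the members as a description, with no p, and any other comparison of Igfbp5 that uses a cultured group is treated in the same way.

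All cells came from C57BL/6N mice, and total RNA of each sample was hybridised to one single-colour array. A_FACS (n = 2) was sorted microglia of adult females, and NB_FACS (n = 3) was sorted microglia of newborn animals of both sexes in the first days of life. Both were sorted for intermediate CD45 and high CX3CR1 after enzymatic digestion with serum and without a transcription inhibitor, and went straight to RNA. NB_Control (n = 3) was microglia of newborn brains, pooled and grown in flasks of mixed glia with medium conditioned by L-929 cells (a fibroblast line that secretes the macrophage growth factor CSF1). In the paper's protocol such cells are shaken off weeks after the brains are taken. They were then kept for 1 further day in serum-containing medium. NB_Stim (n = 3) was handled alike but received CX3CL1, IL-34 and TGF-β1 (human proteins, 100 ng/mL of each), cytokines that brain cells supply to microglia. The sorted and the cultured groups differed in isolation method and in the time since the brains were taken, as well as in culture. The adult and sorted newborn groups differed in age and, in part, in sex. These differences cannot be told apart. Replicate 3 of each newborn group lay on a second slide, and both adult arrays lay on the first.

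IGF-1 is a secreted growth factor that signals through the IGF-1 receptor, a tyrosine kinase, to the PI3K and AKT pathway. The mannose 6-phosphate receptor encoded by Igf2r takes up IGF-2 and sorts lysosomal enzymes. The IGF binding proteins are secreted, hold IGFs with high affinity, and can limit or prolong their action. Igfbp7 binds IGFs only weakly. In the brain, microglia are known as a source of IGF-1 around birth, while several binding proteins are typical products of fibroblasts and of cells of the vessel wall.

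Levels are log2 values of the quantile normalised signal, so that a difference of 1 is a doubling. They follow one gene across groups and are not compared between genes, since each probe has its own brightness. A gene was called when its adjusted p (limma, Benjamini-Hochberg over all 19560 genes) was under 0.05. The cells are a bulk sample, in which fewer cells of a type and less RNA per cell cannot be told apart.

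Between 66.8% and 80.4% of the probes on an array were well above background, and 0 spots were saturated. The 5 microglia markers (Tmem119, P2ry12, Cx3cr1, Csf1r and Itgam) were well above background on all 11 arrays, and their summed linear normalised signal lay between 121853 and 141271 in A_FACS, 39076 and 45524 in NB_FACS, 2628 and 5946 in NB_Control, and 26256 and 27370 in NB_Stim. Fibroblast markers (8 genes, among them Col1a1, Col3a1 and Dcn) summed to 131 and 495 in the adult samples, to between 868 and 1112 in NB_FACS, to between 14437 and 18531 in NB_Control, and to between 8293 and 17656 in NB_Stim. Of these 8 genes, 5 were higher in NB_Control than in NB_FACS and 0 were lower, and between NB_Stim and NB_Control 0 were higher and 1 was lower. Col3a1 was not well above background on either adult array. Markers of the macrophages at the borders of the brain (7 genes, among them Mrc1 and Lyve1) summed to 289 and 778 in A_FACS, to between 11414 and 14155 in NB_FACS, to between 44322 and 87576 in NB_Control, and to between 19328 and 32714 in NB_Stim. The sum followed Pf4 and Ms4a7, the 2 of these 7 called higher in NB_Control than in NB_FACS, while Lyve1, Cd163 and Cbr2 were called lower and Mrc1 differed by 0.17 (adjusted p 0.563). Whether such other cells contributed to the IGF family signals below was not tested.

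**Figure D1:**
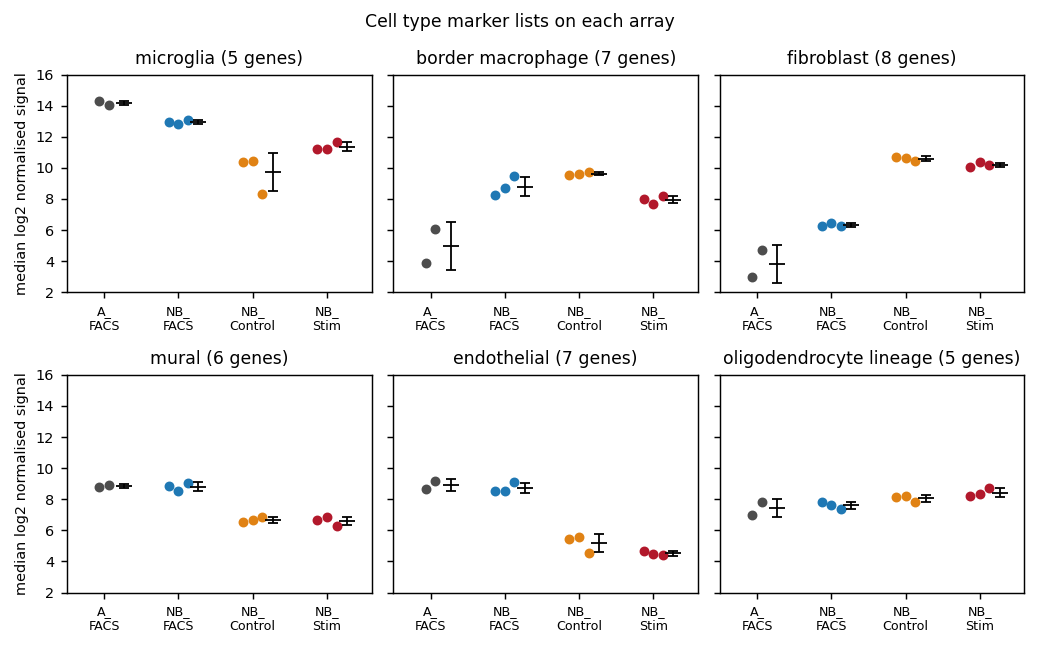
Median log2 normalised signal of 6 lists of cell type markers on each array (points), with the mean and SD of each group (bars), for A_FACS (n = 2), NB_FACS, NB_Control and NB_Stim (n = 3 each). The fibroblast list lay between 10.06 and 10.68 on the 6 arrays of cultured cells and between 2.96 and 6.46 on the 5 arrays of sorted cells.

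The probes that carried these measurements were short sequences, and the first 30 bases of those on which the results turn are shown as the scanner files give them. Igfbp5 and Igfbp4 were each read by a single probe (RefSeq accessions NM_010518.2 and NM_010517.3), of 49 and 53 bases.
Igfbp5: ctctatagtgttacgttcagacaccgtagc
Igfbp4: tttctggcttgcctggatagatttagagac

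Igfbp5 showed the largest difference with cytokines among the members. Its level was 7.81, 7.84 and 6.87 in the 3 NB_Control samples and 11.84, 11.95 and 12.01 in the 3 NB_Stim samples, against 7.35, 7.35 and 7.22 in NB_FACS and 4.41 and 6.69 in A_FACS. All 3 stimulated samples lay far above the other 8 samples, and the stimulated samples differed little from one another (SD 0.09). The mean difference between NB_Stim and NB_Control was 4.43 on the log2 scale, 21.6-fold, with 4.04, 4.11 and 5.14 in the 3 pairs of equal replicate number. Among all 19560 genes this was the second largest difference upwards. The larger one belonged to H2-Ob, a chain of the MHC class II molecule DO, at 4.48, whose signal in NB_Control was well above background on 2 of 3 arrays. Unstimulated culture differed little from sorted newborn cells in this gene, by 0.20, with overlapping samples. Igfbp5 encodes a binding protein that is deposited in the extracellular matrix. Of the 8 fibroblast markers 0 were called higher in NB_Stim than in NB_Control and 1 was called lower, with a median difference of -0.40. Col1a1 was at 12.34 ± 0.33 (SD, n = 3) in NB_Control and 11.65 ± 0.78 (SD, n = 3) in NB_Stim, and Dcn at 10.70 ± 0.13 and 10.64 ± 0.33. Others of the list went up without a call. Pdgfra was at 7.95, 8.10 and 6.89 in NB_Control and 8.06, 8.10 and 10.10 in NB_Stim. Lum was higher in NB_Stim by 0.65 (adjusted p 0.745). Of 5 markers of the oligodendrocyte lineage, 1 was called higher in NB_Stim, Cspg4 (the NG2 proteoglycan, which pericytes also make). It went from 9.54 ± 0.17 to 13.10 ± 0.60 (SD, n = 3 each, adjusted p 0.0026). Olig1 and Olig2 were higher by 0.94 and 1.36 without a call (adjusted p 0.291 and 0.372), with every NB_Stim sample above NB_Control. Mbp and Cnp differed by -0.03 and -0.36. Of 6 markers of mural cells (cells of the vessel wall) 0 were called, with a median difference of -0.09. Of 7 endothelial markers 1 was called higher, Flt1 (2.78, adjusted p 0.00081), and 0 lower, with a median difference of -0.15. Whether such cells contributed to the Igfbp5 signal was not tested. Of the 5 microglia markers 2 were called higher and 0 lower.

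The adult samples had less Igfbp5 than the newborn sorted cells, by 1.76 on the log2 scale (SE 0.54, adjusted p 0.0414). The level was 4.41 in A_FACS replicate 1 and 6.69 in replicate 2, and without replicate 1 the difference was -0.62 (adjusted p 0.302). The call was also lost without any one of the NB_FACS replicates (adjusted p 0.0777 to 0.0922), without NB_Control replicate 1 or 2 (0.0568 and 0.0562) and without NB_Stim replicate 1 or 2 (0.0599 and 0.0593). Over 21 alternative settings the adjusted p ran from 0.000963 to 0.333 and 8 of them kept the call.

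Igfbp4 went the other way with cytokines. It encodes a binding protein that mainly inhibits IGF action until it is cleaved. Its level was 12.73, 12.52 and 12.76 in NB_Control and 9.82, 9.86 and 10.12 in NB_Stim, and it was 12.93, 12.76 and 12.18 in NB_FACS and 10.50 and 10.30 in A_FACS. The newborn sorted cells and the unstimulated cultures overlapped, while the adult cells lay below both and the stimulated cultures lowest, without overlap. The difference of NB_Stim from NB_Control was -2.74, or 6.67-fold, and it was number 45 among all genes in the order of differences downwards. NB_Control did not differ detectably from NB_FACS, with a difference of 0.05 and a 95% interval from -0.40 to 0.49. Igfbp4 fell from NB_FACS to NB_Stim by 2.69 (SE 0.20, adjusted p 1.02e-05) and was lower in A_FACS than in NB_FACS by 2.22 (SE 0.22, adjusted p 0.000152). Both calls held in all 21 alternative settings. Between A_FACS and NB_Stim the difference was 0.47, with an interval from -0.02 to 0.97 and adjusted p 0.116, and it passed without NB_FACS replicate 3 (adjusted p 0.0372, 0.0372 to 0.453 over the alternatives).

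**Figure D2:**
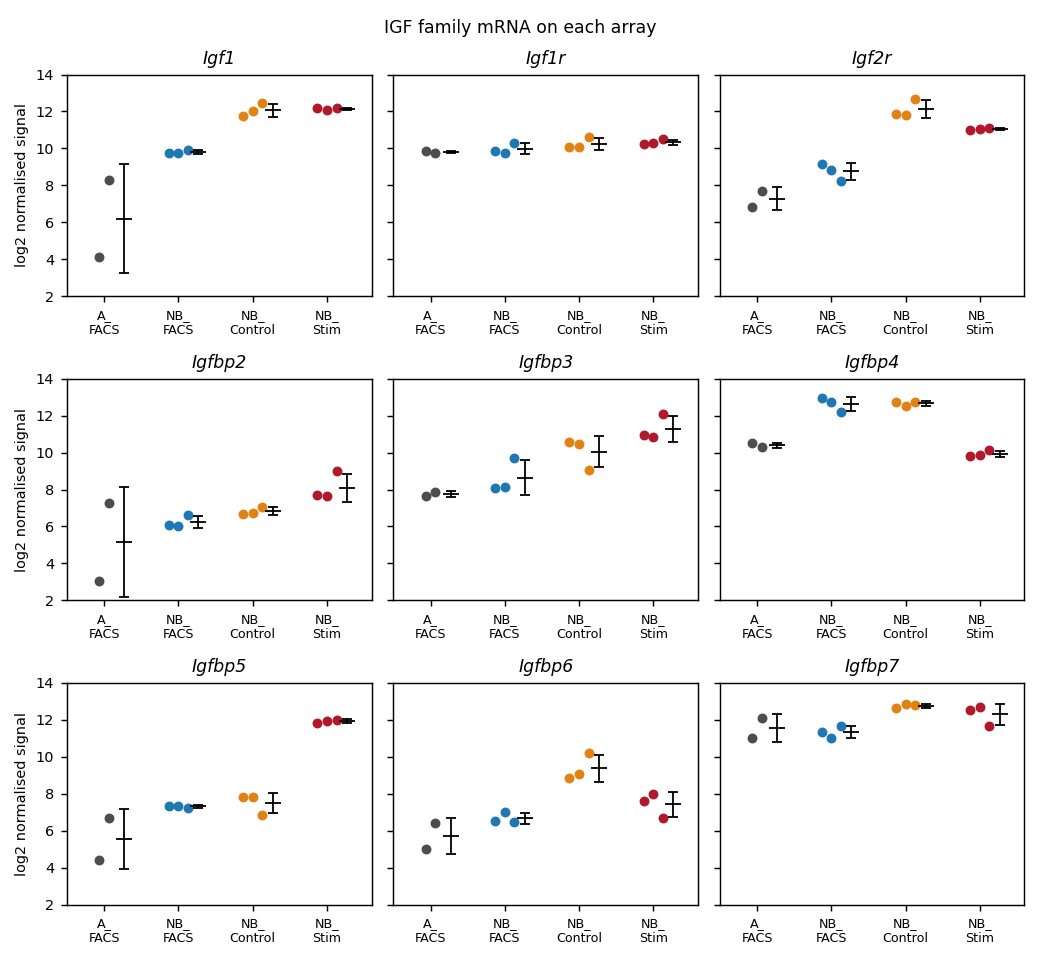
Log2 normalised signal of the 9 members on each of the 11 arrays (points), with the mean and SD of each group (bars), for A_FACS (n = 2), NB_FACS, NB_Control and NB_Stim (n = 3 each). Igfbp5 lay at 11.84 to 12.01 in NB_Stim and at 7.84 or lower elsewhere, and Igfbp4 lay at 9.82 to 10.12 in NB_Stim against 12.52 to 12.76 in NB_Control.

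The sequences upstream of these genes are shown because Igfbp5 and Igfbp4 had the largest differences of the family with cytokines and in opposite directions, beside those of the member most like Igfbp5 and the member least like it in shared words of 6 bases. All 9 members matched the RefSeq promoter table (GRCm38.p6), Igfbp2 with 2 starts. Each line holds the 250 bases before the transcription start, and capitals mark matches on either strand to the motifs named afterwards. Igfbp5 lies on chr1:72874866-72875115 (minus strand), Igfbp4 on chr11:99040994-99041243 (plus strand), Igf1 on chr10:87860861-87861110 (plus strand) and the first start of Igfbp2 on chr1:72824230-72824479 (plus strand).
Igfbp5: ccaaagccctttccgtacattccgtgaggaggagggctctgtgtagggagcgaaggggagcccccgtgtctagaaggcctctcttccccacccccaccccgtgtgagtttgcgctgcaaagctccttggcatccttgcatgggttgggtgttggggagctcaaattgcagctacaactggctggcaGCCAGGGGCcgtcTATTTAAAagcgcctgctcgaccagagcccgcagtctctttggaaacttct
Igfbp4: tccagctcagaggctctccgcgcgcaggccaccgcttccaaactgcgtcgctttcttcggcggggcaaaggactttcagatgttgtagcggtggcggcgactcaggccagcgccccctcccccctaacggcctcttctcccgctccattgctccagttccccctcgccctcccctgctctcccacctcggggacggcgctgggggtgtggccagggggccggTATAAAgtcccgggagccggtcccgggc
Igf1: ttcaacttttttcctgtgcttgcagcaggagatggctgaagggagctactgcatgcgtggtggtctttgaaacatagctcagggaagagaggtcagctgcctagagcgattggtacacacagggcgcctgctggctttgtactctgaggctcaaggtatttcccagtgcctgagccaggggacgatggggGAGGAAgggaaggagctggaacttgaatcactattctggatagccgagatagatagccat
Igfbp2: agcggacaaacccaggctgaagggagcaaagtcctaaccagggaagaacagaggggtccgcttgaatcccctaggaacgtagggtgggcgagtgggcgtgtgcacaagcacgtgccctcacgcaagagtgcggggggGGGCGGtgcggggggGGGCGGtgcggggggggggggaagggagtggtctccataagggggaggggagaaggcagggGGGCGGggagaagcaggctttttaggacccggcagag

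Igfbp2 and Igfbp5 face each other on chromosome 1. The Igfbp5 window shared 27 words of 6 bases with that of Igf1 (6.19% of the words in either) and 14 with the first Igfbp2 window (3.43%). The motifs searched were CAGAC (a site of the SMAD proteins, which relay TGF-β signals), TATAAA and its variant TATTTAAA (TATA boxes), GGGCGG (the GC box), GAGGAA (the core bound by PU.1, a factor of macrophages) and GCCNNNGGC (AP-2). Overlaps between motifs were counted for both. CAGAC was found in 42.2% of all 32851 promoter windows of this length, TATAAA in 12.4%, TATTTAAA in 1.71%, GGGCGG in 32.7%, GAGGAA in 23.3% and GCCNNNGGC in 13.7%. The Igfbp5 window held TATTTAAA and GCCNNNGGC once each, the Igfbp4 window held TATAAA, the Igf1 window held GAGGAA, and the first Igfbp2 window held GGGCGG 3 times. CAGAC was in none of these 4 windows, nor in those of Igfbp3 and Igfbp7. The motifs were picked with the sequences in view, and a match describes letters only.

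Igfbp3 encodes the main IGF carrier of the blood. Its level was 10.58, 10.46 and 9.08 in NB_Control and 10.94, 10.82 and 12.11 in NB_Stim, so that the stimulated samples lay above the unstimulated ones without overlap. The mean difference was 1.25, but it was uneven, 0.36 in each of the first 2 replicate pairs and 3.04 in the third, which lay on the second slide. Sorted newborn cells had 8.06, 8.14 and 9.72, and adult cells 7.65 and 7.87. The difference between NB_Control and NB_FACS was 1.40 (SE 0.55, adjusted p 0.0846) and did not pass. It was 2.42 on the first slide and -0.65 on the second, and without NB_FACS replicate 3 it was 1.94 (adjusted p 0.0169), without NB_Control replicate 3 it was 1.88 (adjusted p 0.0294). From NB_FACS to NB_Stim Igfbp3 rose by 2.65 (SE 0.55, adjusted p 0.00465), 6.28-fold, and the adjusted p over the alternatives ran from 0.00158 to 0.0768. Adult cells were lower than NB_Stim by 3.53 (SE 0.61, adjusted p 0.00146) and lower than NB_Control by 2.28 (SE 0.61, adjusted p 0.0141, 0.00589 to 0.155 over the alternatives). The latter call was lost without either adult array (adjusted p 0.0868 and 0.0526).

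Igfbp6 encodes a binding protein with a preference for IGF-2. Its level was 6.51, 7.02 and 6.47 in NB_FACS, 8.87, 9.06 and 10.18 in NB_Control, 7.61, 7.99 and 6.69 in NB_Stim, and 4.998 and 6.39 in A_FACS. Every unstimulated culture lay above every other sample. Igfbp6 rose from NB_FACS to NB_Control by 2.70 (SE 0.47, adjusted p 0.0018), 6.51-fold, and this held in all 21 alternative settings. The stimulated cultures were lower than the unstimulated ones by 1.94, with -1.25, -1.06 and -3.49 in the 3 replicate pairs. NB_Stim did not differ detectably from NB_FACS (0.77, interval from -0.29 to 1.82, adjusted p 0.256). Adult cells were lower than NB_Control by 3.68 (SE 0.53, adjusted p 0.000442) and lower than NB_Stim by 1.74 (SE 0.53, adjusted p 0.025), the latter lost without A_FACS replicate 1 (-1.04, adjusted p 0.241), without NB_Stim replicate 1 (-1.65, adjusted p 0.0649) and without NB_Stim replicate 2 (-1.46, adjusted p 0.0782), in a range over the alternatives of 0.0112 to 0.241.

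Igfbp2 encodes a binding protein abundant in the fetal brain and the choroid plexus. Its level was 6.05, 6.04 and 6.60 in NB_FACS, 6.69, 6.71 and 7.06 in NB_Control, and 7.69, 7.63 and 8.98 in NB_Stim, an order in which the 3 newborn groups did not overlap. NB_Stim exceeded NB_Control by 1.28. The differences from NB_FACS did not pass for either culture (adjusted p 0.659 for NB_Control and 0.126 for NB_Stim), and the second passed without either adult array (1.87, adjusted p 0.00385). In the adult samples the level was 3.06 in replicate 1, where the probe was not well above background, and 7.25 in replicate 2, so that the direction against NB_FACS depended on the array. Replicate 1 lay at least 5.92-fold below NB_FACS and at least 8.92-fold below NB_Control, with the lowest signal well above background on that array in place of its own, whereas replicate 2 alone differed from them by 1.02 (adjusted p 0.241) and 0.42 (adjusted p 0.591). The call of A_FACS below NB_Stim, by 2.95 with the dim value as measured (SE 0.94, adjusted p 0.0316), was lost without A_FACS replicate 1 (-0.86, adjusted p 0.253), without NB_Stim replicate 1 (-3.15, adjusted p 0.051) and without NB_Stim replicate 3 (-2.51, adjusted p 0.0781), and the range over the alternatives was 0.000163 to 0.266. The 2 detected choroid plexus markers (Ttr, which made up most of the sum, and Folr1) summed to 16602 in the first adult sample and to 123479 in the second, and to 54452, 15849 and 45190 in the NB_FACS samples, and their part was not tested.

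Igfbp7 encodes a secreted protein typical of vessel walls. It was at 11.33, 10.99 and 11.68 in NB_FACS and 10.999 and 12.08 in A_FACS, which overlapped. It was at 12.64, 12.85 and 12.82 in NB_Control, above all sorted samples, and at 12.53, 12.70 and 11.66 in NB_Stim, where the third sample fell within the range of the sorted cells. The rise from NB_FACS to NB_Control was 1.43 (SE 0.34, adjusted p 0.00909) and was called in 20 of 21 alternative settings. The difference between NB_Stim and NB_Control was -0.47, which came mostly from the third replicate pair (-1.16, against -0.11 and -0.15 in the others). NB_Stim and NB_FACS differed by 0.96 (SE 0.34, adjusted p 0.0544). Without NB_Stim replicate 3 this was 1.28 (adjusted p 0.0127), without NB_FACS replicate 3 it was 1.13 (adjusted p 0.0441), and without either adult array its adjusted p was 0.0315. Adult cells were lower than NB_Control by 1.23 (SE 0.37, adjusted p 0.0251). That call was lost without A_FACS replicate 1 (-0.69, adjusted p 0.252), without NB_Control replicate 2 (-1.19, adjusted p 0.0633) and without NB_Control replicate 3 (-1.21, adjusted p 0.0566), with a range over the alternatives of 0.0094 to 0.252. Against NB_Stim the difference was -0.76 and was not called (adjusted p 0.134), whereas it was -1.30 without A_FACS replicate 2 (adjusted p 0.0365) and -1.08 without NB_Stim replicate 3 (adjusted p 0.0304). Markers of endothelial cells (7 genes), which line the vessels, summed to between 4912 and 6680 in NB_FACS and to between 991 and 1130 in NB_Control, and 5 of the 7 were called lower. Of 6 mural cell markers 1 was called higher in NB_Control than in NB_FACS, Acta2 (smooth muscle actin), 1 was called lower, Rgs5, and the median difference was -0.08. Their part in the Igfbp7 signal was not tested.

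Igf1 had the widest range of the members over the 11 arrays, from 4.10 to 12.44. It was read by 6 probes designed on different transcript models, whose longest shared run was 7 bases, so that they were separate readings of the gene. Between A_FACS and NB_FACS, 3 of these probes differed by -2.73, -2.62 and -2.76, and the other 3 by more. The first 30 bases of those other 3 are shown (-4.25, -4.74 and -4.67 in the order printed).
Igf1 (NM_001111274.1): tgatctgaggagactggagatgtactgtgc
Igf1 (NM_001111275.1): acactgacatgcccaagactcagaaggaag
Igf1 (NM_001111276.1): tccaataacattacaaagatgggcatttcc

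Averaged over its probes, Igf1 was at 9.78, 9.73 and 9.93 in NB_FACS, 11.74, 12.0025 and 12.44 in NB_Control, 12.18, 12.08 and 12.17 in NB_Stim, and 4.10 and 8.27 in A_FACS. Both cultures lay above the sorted newborn cells, and these above the adult cells, with no overlap except between the 2 cultures. NB_Control exceeded NB_FACS by 2.25 (SE 0.79, adjusted p 0.0585), which did not pass, and NB_Stim exceeded it by 2.33 (SE 0.79, adjusted p 0.049), which did. The SD was 2.95 in the adult pair and 0.05 to 0.35 in the newborn groups, and all groups share one estimate of the spread. With either adult array left out, the same differences had adjusted p 3.85e-05 and 3.14e-05, with only the 2 groups in the fit the first had 0.000459, and over the alternatives they ran from 3.85e-05 to 0.423 and from 3.14e-05 to 0.367. Conversely, the call for NB_Stim was lost without any one of the 9 newborn arrays, at adjusted p between 0.0614 and 0.119. Each probe gave a difference between NB_Control and NB_FACS of 1.95 to 2.57.

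Between the 2 cultures Igf1 differed by 0.09, less than the SD of NB_Control (0.35), and the sign turned to -0.09 with scaling to the 75th percentile and to -0.08 without NB_Control replicate 1. The adult cells were lower than NB_FACS by 3.63 (SE 0.89, adjusted p 0.0161). The call remained with either adult array alone, but its size did not. It was -1.54 without A_FACS replicate 1 (adjusted p 0.00645) and -5.71 without A_FACS replicate 2 (adjusted p 9.32e-06). In replicate 1 only 3 of the 6 probes were well above background, in replicate 2 all 6 were. Over the alternatives the adjusted p ran from 9.32e-06 to 0.186. Against NB_Control and NB_Stim the adult cells were lower by 5.87 (SE 0.89) and 5.96 (SE 0.89), each with adjusted p 6e-04, and both calls held in all 21 alternative settings. The sizes of these 2 differences again depended on the adult array. They were -3.79 and -3.87 without A_FACS replicate 1, and -7.96 and -8.04 without A_FACS replicate 2. The border macrophage markers, of which 6 of 7 were lower in A_FACS than in NB_FACS, also differed within the adult pair, at summed signals of 289 and 778, and their part was not tested.

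**Figure D3:**
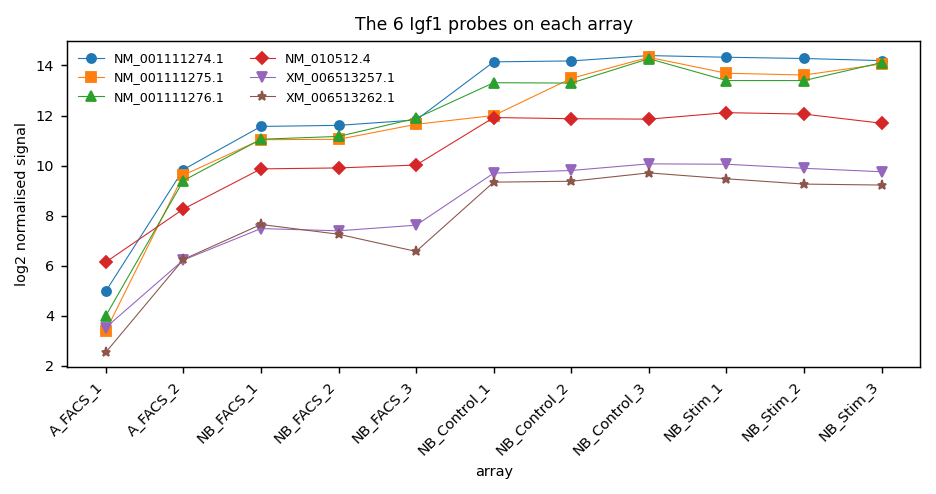
Log2 normalised signal of the 6 Igf1 probes, each named by the RefSeq accession it was designed on, on the 11 arrays (lines join the values of one probe and carry no order of time). The probes spanned 2.55 to 6.15 on A_FACS replicate 1, 6.23 to 9.84 on A_FACS replicate 2, and 9.22 to 14.39 on the 6 arrays of cultured cells.

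The receptor genes, each read by a single probe, differed from each other. Igf1r, the signalling receptor, was nearly flat, at 9.84 and 9.75 in A_FACS, 9.88, 9.77 and 10.31 in NB_FACS, 10.06, 10.07 and 10.60 in NB_Control, and 10.23, 10.28 and 10.49 in NB_Stim. In each newborn group the third sample, on the second slide, was the highest. Its differences were 0.26 between NB_Control and NB_FACS (interval from -0.17 to 0.69, adjusted p 0.372), 0.09 between the cultures (-0.09 with scaling to the 75th percentile) and -0.19 between A_FACS and NB_FACS (interval from -0.68 to 0.29, adjusted p 0.574). With the replicate number as a block, the difference of 0.35 between NB_Stim and NB_FACS passed (adjusted p 0.0351, against 0.207 without the block and 0.0226 to 0.684 over the alternatives), as did that of A_FACS from NB_Stim (-0.405, adjusted p 0.0283, against -0.54 and 0.0697 without the block and 0.0182 to 0.308 over the alternatives). With the slide as a block both passed too (adjusted p 0.0226 and 0.0182). The latter also passed with normexp background correction (adjusted p 0.0448), without NB_FACS replicate 3 (adjusted p 0.0443) and without NB_Control replicate 3 (adjusted p 0.0401).

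Igf2r was called in each of the 5 comparisons tested. It was at 9.16, 8.86 and 8.24 in NB_FACS, 11.87, 11.79 and 12.68 in NB_Control, 10.99, 11.05 and 11.08 in NB_Stim, and 6.82 and 7.72 in A_FACS, so that no 2 groups overlapped. It rose from NB_FACS to NB_Control by 3.36 (SE 0.32, adjusted p 4.79e-05), 10.3-fold, the largest rise of the tested members in culture, and from NB_FACS to NB_Stim by 2.29 (SE 0.32, adjusted p 0.000499). Both calls held in all 21 alternative settings. NB_Stim was lower than NB_Control by 1.08, with -0.89, -0.74 and -1.60 in the replicate pairs. A_FACS was lower than NB_FACS by 1.48 (SE 0.36, adjusted p 0.015). This call was lost without A_FACS replicate 1 (-1.04, adjusted p 0.146), and its adjusted p over the alternatives ran from 0.0093 to 0.155. Against the cultures the adult level was lower by 4.84 and 3.77 (SE 0.36 each, adjusted p 9.23e-06 and 4.45e-05).

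**Figure D4:**
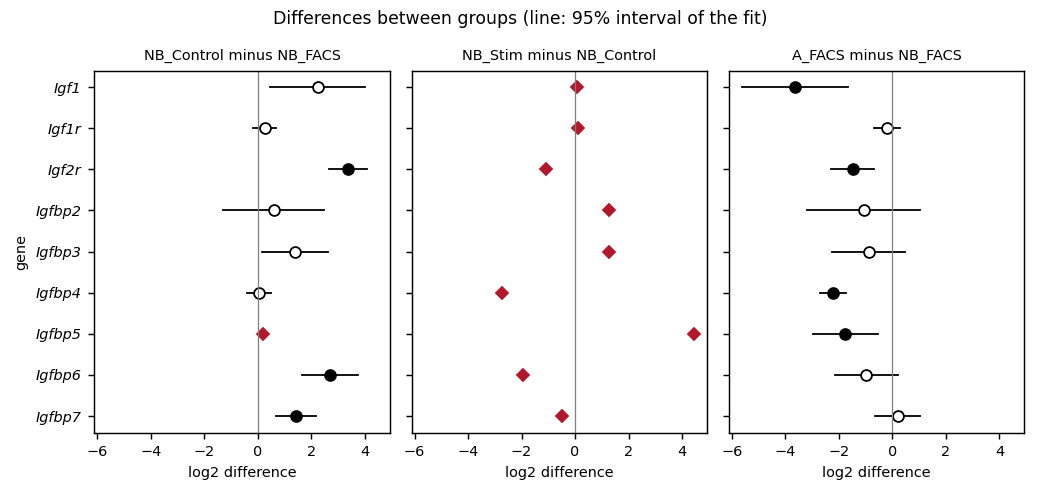
Log2 differences of the 9 members in 3 comparisons, with 95% intervals of the limma fit (filled circles, adjusted p under 0.05, open circles, not called). Red diamonds are differences given as a description without interval or test, and they spread from -2.74 for Igfbp4 to 4.43 for Igfbp5 between NB_Stim and NB_Control.

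Counted over the family, 3 of the 8 tested members (Igf2r, Igfbp6 and Igfbp7) were higher in NB_Control than in NB_FACS and 0 were lower. Of all genes 29.7% were called (3090 higher and 2719 lower), so the share called in either direction was near that of genes in general. From NB_FACS to NB_Stim 3 of 8 were higher (Igf1, Igf2r and Igfbp3) and 1 lower (Igfbp4), against 31.1% of all genes (3123 higher and 2961 lower). In A_FACS against NB_FACS 4 of 9 members were lower (Igf1, Igf2r, Igfbp4 and Igfbp5) and 0 higher. Of all genes 22.7% were called, 2528 lower and 1909 higher. In A_FACS against NB_Control 6 of 8 were lower and 0 higher, against 40.8% of all genes (4530 lower and 3453 higher). Against NB_Stim 5 of 8 were lower and 0 higher, against 40.3% (4453 lower and 3421 higher). Without NB_Stim replicate 1 this last count was 3, with 6507 of all genes called in place of 7874. Without A_FACS replicate 1 each of these adult counts was smaller, and so was the number of all genes called. The comparisons share groups, so their counts are not independent. The median over all genes was -0.11 for A_FACS against NB_Control, -0.10 against NB_Stim, and 0.11 for NB_Stim against NB_FACS, all smaller than the differences called here.

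Between NB_Stim and NB_Control, which chose the family, 3.4% of all genes were called (274 higher and 392 lower). The samples of the 2 groups did not overlap for Igfbp2, Igfbp3 and Igfbp5 (higher in NB_Stim) or for Igf2r, Igfbp4 and Igfbp6 (lower). The share of all genes that separated in this way was not counted, so this describes the members only. With the replicate number as a block the number of genes called was 1199 in place of 666, and with the slide as a block it was 1476. Within the 2 slides the differences kept their sign for all members except Igf1 and Igf1r. Igfbp5 differed by 4.08 on the first slide and 5.14 on the second, Igfbp4 by -2.79 and -2.64, and Igfbp3 by 0.36 and 3.04.

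The genes whose level followed Igfbp5 most closely over the 11 arrays, by Pearson correlation of the log2 values, were Ago1 (0.97), Reep2 (0.97), Ssx2ip (0.96), Prn (0.96) and Ctse (0.96). Ctse, which encodes the protease cathepsin E, had means of 4.57 in A_FACS, 5.10 in NB_FACS, 5.19 in NB_Control and 7.19 in NB_Stim. The genes most like Igf1 were Gpnmb (0.99), Irs1 (0.99), Fabp5 (0.99), Dbi (0.99) and Cox6c (0.985). Gpnmb, a glycoprotein of phagocytic macrophages, had means of 4.19, 10.06, 14.66 and 14.53 in the same order of groups. Irs1, the adaptor that carries the signal of the IGF-1 and insulin receptors, had 2.84, 5.88, 7.33 and 7.23, and it was well above background on 1 of the 2 adult arrays. Among the members, Igfbp5 correlated most with Igfbp3 (0.83) and least with Igfbp4 (-0.52), and Igf2r and Igfbp6 correlated at 0.90. The points are groups of samples that share arrays and normalisation, so these values describe the 11 arrays only.

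The other genes of the pathway were taken from a list of ligands, proteases, receptors, adaptors, kinases and targets. Of 42 listed, 38 were on the array and 37 were tested. Igfbp1 did not pass the filter. In NB_Control against NB_FACS 11 were higher and 3 lower, where 29.7% of all genes were called, with a median difference of 0.13 (0.09 over all genes). In NB_Stim against NB_Control 1 was higher and 2 lower, where 3.4% of all genes were called, and the median difference was -0.07. In A_FACS against NB_FACS 6 were higher and 3 lower, near the 22.7% of all genes. The second ligand gene, Igf2, was called in none of these 3 (adjusted p 0.361, 0.751 and 0.152), with levels between 7.93 and 9.21 over the 11 arrays. It was called lower in A_FACS against NB_Control (-0.63, SE 0.19, adjusted p 0.0218) and against NB_Stim (-0.80, SE 0.19, adjusted p 0.00716). Insr, the insulin receptor, was higher in NB_Control than in NB_FACS by 0.40 (SE 0.13, adjusted p 0.0408). It was higher in A_FACS than in NB_FACS by 1.01 (SE 0.15, adjusted p 0.0011).

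By role, proteases of the binding proteins and their inhibitors had 2 of 5 higher in NB_Control than in NB_FACS and 0 lower. Of these 5, 0 were called between NB_Stim and NB_Control or between A_FACS and NB_FACS. Related receptors had 2 of 3 higher in culture. Adaptors had 1 higher and 1 lower of 6, the PI3K and AKT group 3 higher of 10, and negative regulators and targets 3 higher and 1 lower of 8. With 29.7% of all genes called in this comparison, groups of this size give no more than a description. The largest called rise in culture was Grb14, an adaptor that inhibits the insulin receptor, at 4.18, 4.43 and 4.92 in NB_FACS and 7.07, 7.33 and 7.23 in NB_Control, by 2.70 (SE 0.40, adjusted p 0.000725). Grb14 was also the largest called rise in NB_Stim against NB_FACS (2.30, adjusted p 0.00188) and in A_FACS against NB_FACS (1.97, adjusted p 0.0119). Pik3r1, a regulatory subunit of PI3K, was the largest in A_FACS against NB_Control (2.02, adjusted p 0.00126) and NB_Stim (1.94, adjusted p 0.00176).

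With cytokines the called rise was Socs2, an inhibitor of growth hormone signalling, which was at 7.06, 6.88 and 6.86 in NB_Control and 7.70, 7.74 and 8.09 in NB_Stim (0.91, SE 0.15, adjusted p 0.0103). The largest called fall was Igf2bp2, an mRNA-binding protein named for its binding of Igf2 mRNA, from 7.46, 7.80 and 8.60 to 6.63, 6.69 and 6.08 (-1.49, SE 0.31, adjusted p 0.031). The related Igf2bp3, mainly a fetal protein, was the largest called fall in both cultures against NB_FACS. It was at 9.04, 9.08 and 9.10 in NB_FACS, 8.05, 8.03 and 7.98 in NB_Control and 7.52, 7.54 and 7.19 in NB_Stim. In A_FACS it was at 2.10 and 2.40. The gene was counted as well above background on 1 of these 2 adult arrays. Both adult values were nevertheless dimmer than 3.66 and 2.83, the weakest signals that passed this rule on replicates 1 and 2. With cytokines Igf2bp3 was called lower as well (-0.61, SE 0.14, adjusted p 0.0454). It was also called lower in A_FACS than in NB_FACS (adjusted p 3.19e-08), but with adult values this dim the size of that fall cannot be stated. Between NB_Stim and NB_FACS its difference was -1.66 (SE 0.14, adjusted p 2.14e-05).

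**Figure D5:**
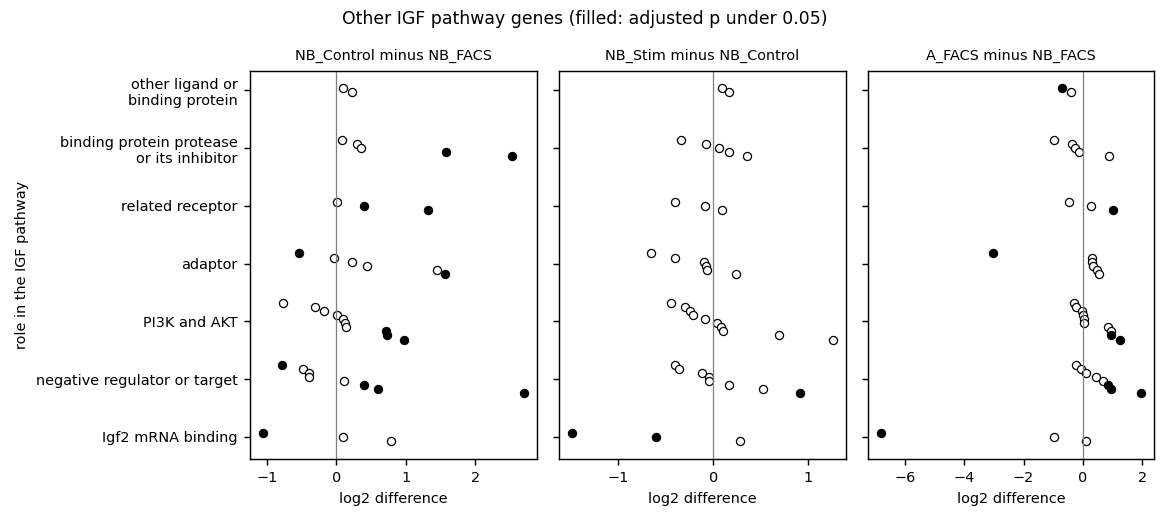
Log2 differences of the 37 other IGF pathway genes, grouped by role, in 3 comparisons with their own horizontal scales (filled, adjusted p under 0.05 by limma, open, not called). The leftmost point in A_FACS against NB_FACS is Igf2bp3, whose adult signal lay near background so that its place at -6.82 is no exact size, and 3 genes were called between NB_Stim and NB_Control.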

How the data were processed

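Total RNA of 11 samples was hybridised to single-colour (Cy3) Agilent arrays of 62976 spots, 1439 of them controls. The deposited scanner files hold a background-subtracted signal intensity per spot that the authors' array service made with Feature Extraction 11.5.1.1 (version 11 in the submitters' processing notes), with no normalisation between arrays. The deposited intensity table of the series held the same values (0 of 692197 differed beyond a relative tolerance of 1e-05). The authors' fold changes or tests are not among the data used here.

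In R 4.3.3, control spots and outlier-flagged spots were left out, spots of a probe were averaged, and the intensity was quantile normalised, as the study did, and converted to log2 (limma 3.58.1). Of 59899 probes, 36190 matched 23283 symbols by RefSeq accession. A probe was kept if some group had it well above background on all its arrays, and probes were averaged to 19560 genes, of which 4901 had several probes. One mean per group was fitted over the 11 arrays with lmFit and eBayes, and p-values were adjusted by Benjamini-Hochberg over all genes for each of 6 comparisons. Scripts were tested on simulated data. Figures were drawn with matplotlib. Arrays give no read depth, and the number of arrays limits the precision.

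Whether replicate numbers paired the samples was checked by correlating deviations from group means. Same-numbered newborn samples correlated at 0.112 to 0.489, each above 0.1, the rule set for pairing. Nothing in the labels ties a number to a litter or day, however. On the first slide, newborn samples of the same number correlated at 0.112 to 0.367 and those of different numbers at 0.185 to 0.364. Newborn samples on different slides correlated at -0.448 to -0.184. Deviations cancel within a group, so these negative values follow in part from the positive ones. The numbers thus showed no pairing beyond the shared slide. The main fit used no block, so slide differences stay in its estimate of the spread. Numbers did not pair the adult samples (-0.069 to 0.168). The replicate block was an alternative, as were scaling to the 75th percentile, normexp (offset 50), other probe filters and summaries, only the groups compared, the slide as a block, the methods' Tukey test, and leaving out each array. Slide and scan coincide. Replicates are the separate samples that the labels name, and p-values measure the spread between them.

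Members, gene lists and motifs were chosen with earlier results of these data known. All 9 members are named. Of the pathway, the largest called rise and fall per comparison, Igf2 and Insr are named, with the 5 genes most correlated with Igfbp5 and with Igf1. H2-Ob, Cspg4 and single markers were named after their values were seen. Of 63 marker genes 53 were tested, and 1 further marker is not reported here. Sequences are from RefSeq (GRCm38.p6) and the scanner files.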

Additional observations from a re-analysis of the deposited data

How the results depend on the processing

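Each difference of a member was recomputed under 21 alternative settings, 1128 values in all (Igfbp2 has no value with probes well above background on all arrays). Of these 1031 counted as unchanged. For a tested difference this means the same direction and the same side of the threshold. For a difference given without a test it means the same direction and a shift smaller than the SD within the 2 groups. The numbers of members called moved more. Between NB_Stim and NB_Control, the comparison that chose the family, so that its counts support nothing, 1 of 8 members other than Igfbp5 was past the threshold, 3 with scaling to the 75th percentile, and 2 with normexp background correction, with probes well above background on all arrays, with the replicate block, with the slide block and with the methods' Tukey test. In these settings 732 to 1589 of all genes were called, against 666 as reported. In A_FACS against NB_FACS, 4 of 9 were called (4437 of all genes). There it was 1 with only the groups compared (2923) or with the Tukey test after Benjamini-Hochberg (2014). In NB_Stim against NB_FACS 4 were called (6084), and 2 with the latter test (3619). In A_FACS against NB_Stim 5 were called (7874). It was 3 with only the groups compared (6408), with the Tukey test (6780) and with its form after Benjamini-Hochberg (4655). Leaving out one array at a time gave 3 to 4 called for NB_Control against NB_FACS, 1 to 2 for NB_Stim against NB_Control, 3 to 6 for NB_Stim against NB_FACS, 2 to 5 for A_FACS against NB_FACS, 4 to 6 for A_FACS against NB_Control and 3 to 7 for A_FACS against NB_Stim. The cause was not tested.

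Over all 19560 genes the number called ran, across the alternatives, from 183 to 1589 for NB_Stim against NB_Control (666 as reported), from 3545 to 7616 for NB_Control against NB_FACS (5809), from 3619 to 8157 for NB_Stim against NB_FACS (6084), from 2014 to 6408 for A_FACS against NB_FACS (4437), from 4882 to 10017 for A_FACS against NB_Control (7983) and from 4655 to 10206 for A_FACS against NB_Stim (7874).

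Signs turned in 7 cases. With scaling to the 75th percentile the differences between the cultures were -0.0921 for Igf1 and -0.089 for Igf1r. Leaving out one array at a time, the difference of Igf1 between the cultures ran from -0.0756 (without NB_Control replicate 1) to 0.2753, that of Igfbp2 between A_FACS and NB_FACS from -3.1708 to 1.0152 and between A_FACS and NB_Control from -3.7619 to 0.4241 (both highest without A_FACS replicate 1, and both lowest values set against a signal not well above background, so that they are no exact sizes), that of Igfbp7 between A_FACS and NB_FACS from -0.3381 (without A_FACS replicate 2) to 0.7434, and that of Igfbp4 between NB_Control and NB_FACS from -0.176 (without NB_FACS replicate 3) to 0.202. The replicate block changed 2 calls of members with a test, both of Igf1r, and no other. With 2 adult arrays, whose Igf1, Igfbp2 and Igfbp5 levels lay far apart, the adult comparisons are the least precise, and a fit that leaves 1 of them assumes that it varies like the other groups.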
